A study of Mus musculus with 75 samples.

Results

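Actin, the proteins that bind its monomers and cut its filaments, and the signalling proteins that set where filaments grow were followed through 10 genes in nuclei sorted from the mouse nucleus accumbens: Actb, Actg1, Tmsb4x, Tmsb10, Pfn1, Pfn2, Cfl1, Rac1, Rhob and Arpc2. They are 10 of the 55401 gene identifiers in the deposited count table. The set was chosen by measured values, since the counts of Actb and Actg1 were higher in D1 nuclei given cocaine again than in D1 nuclei left in withdrawal. Every value that uses those libraries is therefore given as a description without a test.

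Actin monomers add to the growing ends of filaments and leave from the old ends, and this turnover shapes the dendritic spines on which medium spiny neurons of the accumbens receive their excitatory input. Profilins load monomers for assembly, beta-thymosins hold monomers in reserve, cofilin severs old filaments, the Arp2/3 complex starts branches on existing ones, and small GTPases such as Rac1 and RhoB decide where each of these acts. The genes for both cytoplasmic actins are targets of serum response factor, whose cofactors are themselves held inactive by free actin monomers.

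The mice were male and double-transgenic. All carried LSL-eGFP::L10a, a green fluorescent tag on a ribosomal protein that Cre switches on, together with either D1-Cre or D2-Cre, so the nuclei that could be sorted were those in which the driver of one dopamine receptor gene had been active. Injections of saline or of cocaine (20 mg/kg, intraperitoneal) were given daily for 10 days, 30 days in the home cage followed, and brains were taken 1 h after a challenge with saline or cocaine. In a group name such as D1_SC the first letter after the line is the daily drug and the last is the challenge drug, C being cocaine and S saline. There were 10 libraries of D1_CC (cocaine, then a cocaine challenge), 9 of D1_SC (saline, then a first cocaine challenge), 8 of D1_CS (cocaine, then saline) and 10 of D1_SS (saline throughout). In the D2 line there were 10 of D2_CC, 9 of D2_SC, 10 of D2_CS and 9 of D2_SS. The labels do not say whether libraries came from separate animals or from pools, so p-values measure the spread between these libraries, which may be partly technical.

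The libraries held between 19825 and 34870414 counts (median 14893119), and 71 of the 75 held at least 1000000. By a rule on depth, number of genes, receptor ratio and likeness to the rest of the line, 19 libraries failed: 3 of D1_CC, 4 of D1_SC, 2 of D1_CS, none of D1_SS, 2 of D2_CC, 2 of D2_SC, 5 of D2_CS and 1 of D2_SS. The labelled line was checked against its receptor gene: Drd2 exceeded Drd1 in 16 of the 37 D1 libraries, and Drd1 exceeded Drd2 in 0 of the 38 D2 libraries. Only 4 of the D1 libraries failed on the receptor ratio, so D1 libraries with more Drd2 than Drd1 remain among those that passed. The summed level of 7 measured D2 neuron markers had a median of 1147 CPM (counts scaled to a library total of 1000000) in D1_CC, against 418, 417 and 472 CPM in D1_SC, D1_CS and D1_SS. Counts spread over olfactory and vomeronasal receptor genes, scaled to the length of all genes, gave a background share of 4.04% to 71.6% of a library. In pooled nuclei, fewer nuclei of a type and less RNA per nucleus cannot be told apart.

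The promoter of Actg1 is shown because it alone among the 10 promoters found for 8 of the genes held a CArG box, the site known to be bound by serum response factor, and those of Rhob and Cfl1 because they share with it the other motif found. The sequences are from RefSeq (build GRCm38.p6) and run 5′ to 3′ on the strand of the gene, from 250 bases before its start to 50 after. Capitals mark the CArG box (the run of 10 capitals in Actg1) and CCAAT or its reverse complement (each run of 5 capitals). Actg1 lies at chr11:120348446-120348745 on the minus strand, Rhob at chr12:8499960-8500259 on the minus strand and Cfl1 at chr19:5490205-5490504 on the plus strand.
Actg1: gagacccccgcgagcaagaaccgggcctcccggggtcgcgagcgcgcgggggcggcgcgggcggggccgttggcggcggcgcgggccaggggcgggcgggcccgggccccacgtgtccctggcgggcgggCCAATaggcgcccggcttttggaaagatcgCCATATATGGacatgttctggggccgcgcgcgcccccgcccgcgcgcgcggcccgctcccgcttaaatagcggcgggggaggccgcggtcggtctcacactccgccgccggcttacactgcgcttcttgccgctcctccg
Rhob: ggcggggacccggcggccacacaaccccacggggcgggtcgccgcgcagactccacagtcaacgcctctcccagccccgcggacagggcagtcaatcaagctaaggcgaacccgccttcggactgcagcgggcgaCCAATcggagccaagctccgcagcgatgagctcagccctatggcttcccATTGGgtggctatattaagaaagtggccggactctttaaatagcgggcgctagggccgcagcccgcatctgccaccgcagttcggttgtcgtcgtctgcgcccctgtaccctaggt
Cfl1: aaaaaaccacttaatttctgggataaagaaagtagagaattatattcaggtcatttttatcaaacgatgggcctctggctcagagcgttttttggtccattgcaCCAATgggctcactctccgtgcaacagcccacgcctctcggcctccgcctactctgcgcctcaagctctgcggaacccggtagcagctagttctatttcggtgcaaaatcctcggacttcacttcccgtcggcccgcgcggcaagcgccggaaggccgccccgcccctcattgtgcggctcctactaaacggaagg
The CArG box of Actg1 lay 90 to 81 bases before the start, and such a box was present in 535 of all 32817 promoters of the same length (1.63%). CCAAT was present on either strand in the promoters of Actg1, Rhob and Cfl1, and in 37.4% of all promoters. Neither the AP-1 site TGANTCA (7.81% of all promoters) nor TATAAA (13.6%) was found in a promoter of the set, on either strand. Arpc2, Pfn1, Pfn2, Tmsb4x and the 3 promoters of Tmsb10 held no match to any of the 4 motifs, and Actb and Rac1 had no entry.

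The actins were the most abundant members per length of gene. The median over the 75 libraries was 32.1 CPM per kilobase for Actb and 11.3 for Actg1, then 6.89 for Tmsb4x, 5.97 for Rhob, 4.67 for Pfn2, 3.995 for Tmsb10, 3.41 for Cfl1, 2.20 for Arpc2, 1.98 for Pfn1 and 1.46 for Rac1. The length is the gene span, introns included, which is also the length behind the deposited FPKM. In that order the 2 longest genes, Arpc2 (32.1 kilobases, 6.33% exonic) and Rac1 (24.4 kilobases, 18.4% exonic), stand near the bottom. The other 8 span 1.402 to 6.19 kilobases and are 57.3% to 100% exonic. Beta-actin and gamma-actin are nearly identical in their coding sequence, and these families have processed copies elsewhere in the genome, so the split of reads among them is uncertain. Snx32 overlaps Cfl1, and Daglb overlaps Rac1, on the opposite strand, and no source used here gives the strand setting with which reads were counted. A member had 0 counts in 16 of the 750 values, which came from 5 libraries that had all failed the rule. In those libraries a count of 0 allows up to between 2.19 and 151 CPM (3 counts per library, counting error only).

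Actb encodes beta-actin, the main actin of non-muscle cells (ENSMUSG00000029580.14, chr5:142903115-142906754, minus strand, build mm10). In the D1 line its lowest, median and highest CPM were 78.2, 215 and 860 in D1_CC, 38.6, 107 and 329 in D1_SC, 41.4, 67.0 and 97.8 in D1_CS, and 10.2, 207 and 414 in D1_SS. In the D2 line they were 56.2, 83.4 and 384 in D2_CC, 86.4, 114.8 and 477 in D2_SC, 61.3, 296 and 733 in D2_CS, and 92.2, 224 and 379 in D2_SS. The D1_CS libraries lay close together and low, and 9 of the 10 D1_CC libraries were above the highest of them. The D2 line had the opposite layout: 1 of the 10 D2_CC libraries was above the D2_CS median. Among libraries that passed the rule, the medians were 83.4 CPM in 8 of D2_CC and 169 CPM in 5 of D2_CS. Ordered by median, the groups ran D2_CS, D2_SS, D1_CC, D1_SS, D2_SC, D1_SC, D2_CC and D1_CS, and each group's range overlapped that of its neighbour in this order. In D1_SS, replicates 8 and 9 had 10.2 and 10.6 CPM although neither failed the rule, and the other 8 libraries had 50.9 to 414 CPM.

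Actg1 encodes gamma-actin, the other cytoplasmic actin (ENSMUSG00000062825.15, chr11:120345690-120348542, minus strand). Its lowest, median and highest CPM were 27.3, 67.7 and 292 in D1_CC, 2.71, 17.7 and 105 in D1_SC, 11.9, 23.2 and 30.5 in D1_CS, and 2.51, 69.0 and 148 in D1_SS. In the D2 line they were 0, 23.5 and 150 in D2_CC, 19.3, 31.2 and 117 in D2_SC, 7.32, 54.0 and 197 in D2_CS, and 26.8, 71.0 and 131 in D2_SS. Actg1 followed the same layout as Actb: 9 of 10 D1_CC libraries stood above every D1_CS library, and 2 of 10 D2_CC libraries stood above the D2_CS median. The median of D1_CC was 0.981 times that of D1_SS, and 0 of 8 D1_CS libraries reached the D1_SS median.

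**Figure D1:**
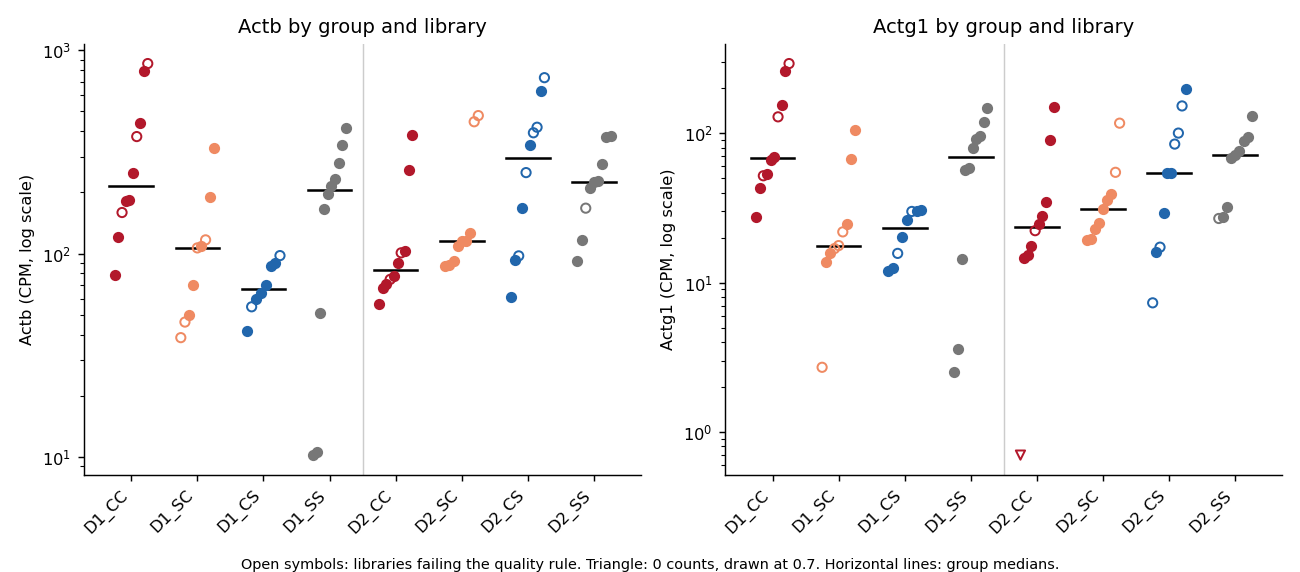
Levels of Actb (left) and Actg1 (right) in CPM on a log scale, one symbol per library, by group; horizontal lines are group medians, open symbols are libraries that failed the quality rule, and the triangle is a library with 0 counts. The 8 D1_CS libraries sit between 41.4 and 97.8 CPM for Actb, against 78.2 to 860 CPM in D1_CC. D2_CC and D2_CS stand the other way round, with Actb medians of 83.4 and 296 CPM. Among libraries that passed the rule these medians were 83.4 and 169 CPM.

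Thymosins beta-4 and beta-10, encoded by Tmsb4x and Tmsb10, bind actin monomers and keep them from assembling. Tmsb4x (chrX:167207093-167209315) had medians of 25.5, 7.71, 11.3 and 37.6 CPM in D1_CC, D1_SC, D1_CS and D1_SS, and 14.6, 14.0, 14.5 and 41.8 CPM in D2_CC, D2_SC, D2_CS and D2_SS. Its lowest and highest values were 12.1 and 136 CPM in D1_CC, 0 and 76.2 in D1_SC, 6.03 and 18.2 in D1_CS, and 2.20 and 84.0 in D1_SS. In both lines the saline-throughout group had the highest median for this gene, while its range overlapped those of the other groups. In D2 nuclei the ranges were 4.51 to 50.4 CPM in D2_CC, 7.11 to 21.3 in D2_SC, 0 to 76.1 in D2_CS and 7.73 to 108 in D2_SS. None of the 9 D2_SC libraries reached the D2_SS median. Tmsb10 (chr6:72957347-72958748) had a lower level and the same order of groups in the D1 line, with medians of 7.82, 2.77, 4.42 and 11.5 CPM in D1_CC, D1_SC, D1_CS and D1_SS, and 3.77, 4.90, 5.29 and 11.7 CPM in D2_CC, D2_SC, D2_CS and D2_SS. Over the 75 libraries its count had a median of 78, so single libraries are imprecise.

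Profilins exchange the nucleotide on actin monomers and deliver them to growing ends, and Pfn2 is the form enriched in brain. Pfn2 (chr3:57841895-57848079) had medians of 39.7, 17.5, 20.3 and 45.5 CPM in D1_CC, D1_SC, D1_CS and D1_SS, and 22.02, 27.6, 42.5 and 45.6 CPM in D2_CC, D2_SC, D2_CS and D2_SS. In the D1 line 9 of 10 D1_CC libraries (18.9 to 166 CPM) were above the highest D1_CS library (11.6 to 24.5 CPM). In D2 nuclei the same pair ran 15.4 to 69.2 CPM in D2_CC and 17.2 to 281 CPM in D2_CS, with the top value in a library that failed the rule. Pfn1 (chr11:70651850-70654644), the ubiquitous profilin, was sparser, with medians of 8.61, 4.94, 4.04 and 9.57 CPM in D1_CC, D1_SC, D1_CS and D1_SS, and 4.29, 5.54, 5.35 and 10.7 CPM in D2_CC, D2_SC, D2_CS and D2_SS.

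Cofilin, encoded by Cfl1 (chr19:5490455-5495201), severs aged filaments and is switched off by LIM kinase. Its medians were 24.9, 12.9, 10.9 and 30.2 CPM in D1_CC, D1_SC, D1_CS and D1_SS, and 11.9, 16.2, 24.7 and 33.2 CPM in D2_CC, D2_SC, D2_CS and D2_SS. Ranges of 10.8 to 114 CPM in D1_CC and 6.97 to 14.5 CPM in D1_CS overlapped in 1 D1_CC library. In D2 nuclei the ranges, 0 to 48.8 CPM in D2_CC and 0 to 66.6 CPM in D2_CS, overlapped over most of their extent.

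Rac1 and Rhob encode GTPases with different tasks: Rac1 drives branched filaments through the WAVE complex, and RhoB, a relative of RhoA found largely on endosomes, is encoded by a gene without introns that is induced soon after many stimuli. Rhob (chr12:8497661-8500009) had medians of 21.97, 10.3, 8.91 and 21.9 CPM in D1_CC, D1_SC, D1_CS and D1_SS, and 10.8, 14.0, 15.1 and 23.0 CPM in D2_CC, D2_SC, D2_CS and D2_SS. Rac1 (chr5:143503634-143528036) varied less between groups, with medians of 46.3, 29.8, 28.9 and 48.8 CPM in D1_CC, D1_SC, D1_CS and D1_SS, and 29.5, 32.4, 35.0 and 44.2 CPM in D2_CC, D2_SC, D2_CS and D2_SS. For Rhob 9 of 10 D1_CC libraries, and for Rac1 8 of 10, were above all 8 D1_CS libraries.

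Arpc2 (chr1:74236084-74268209) encodes a core subunit of the Arp2/3 complex and had the smallest ratio of highest to lowest group median. Its lowest, median and highest CPM were 42.5, 68.2 and 164 in D1_CC, 41.3, 81.2 and 161 in D1_SC, 32.6, 50.1 and 91.7 in D1_CS, and 42.1, 73.3 and 90.2 in D1_SS. In the D2 line they were 43.6, 65.9 and 100.9 in D2_CC, 54.3, 70.1 and 139 in D2_SC, 0, 55.0 and 126 in D2_CS, and 53.6, 75.04 and 114 in D2_SS. Here 2 of 10 D1_CC libraries were above the highest D1_CS library, and D1_SC, not D1_SS, had the highest median of the D1 line.

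The comparison behind the choice was a cocaine challenge against a saline challenge in D1 nuclei, both after daily cocaine and withdrawal. In the edgeR quasi-likelihood fit of the 37 D1 libraries, the log2 change of D1_CC over D1_CS (± SE) was 2.82 ± 0.61 for Actb, 2.95 ± 0.66 for Actg1, 2.84 ± 0.63 for Rhob, 2.62 ± 0.69 for Tmsb4x and 2.62 ± 0.58 for Cfl1. The other 5 were 2.31 ± 0.60 for Pfn1, 2.28 ± 0.54 for Pfn2, 2.24 ± 0.59 for Tmsb10, 1.55 ± 0.40 for Rac1 and 0.91 ± 0.39 for Arpc2. The fit compares means of libraries scaled by TMM factors, whereas CPM are scaled to the library total alone. The ratio of CPM medians was smaller than the fitted change, at 3.21-fold for Actb and 2.92-fold for Actg1. The parts of the means and of the scaling in this gap were not tested. The median over the 10 genes was 2.46, beside -0.09 over all genes tested. Of the 10, 9 passed the adjusted threshold of 0.05 in the higher direction, which 8.28% of 37721 genes did; nothing is read from that count, because this contrast picked the genes. The count was 0 when either D1_CC replicate 1 or replicate 3 was left out, and 0 without the libraries that failed the rule, where the median was still 2.28. Those 2 libraries had 788 and 860 CPM of Actb, against 78.2 to 439 CPM in the other 8 of D1_CC. They also had the highest shares of counts on ribosomal protein genes in that group (0.561% and 0.511%) and the lowest background shares (16.5% and 4.04%).

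Other contrasts with the same D1 libraries share them, and are set side by side without a test. Withdrawal against saline throughout, D1_CS over D1_SS, ran from -1.89 ± 0.67 for Tmsb4x to -0.30 ± 0.38 for Arpc2, with all 10 genes below 0 and Actb at -1.54 ± 0.57. Cocaine again against saline throughout, D1_CC over D1_SS, ran from 0.46 ± 0.52 for Tmsb10 to 1.57 ± 0.55 for Rhob, with Actb at 1.28 ± 0.53. For Actb, 5 of the 10 D1_CC libraries were above the D1_SS median, and those groups overlapped widely. The levels did not all have the sign of that fit. The ratio of the D1_CC median to the D1_SS median was 1.04 for Actb and 1.00 for Rhob. It was 0.678 to 0.981 for the rest, lowest for Tmsb4x. Cocaine again against a first dose, D1_CC over D1_SC, was 1.91 ± 0.60 for Actg1 and 1.55 ± 0.55 for Actb, and Arpc2 alone lay below 0 (-0.42 ± 0.37). The difference of challenge responses by history, (D1_CC over D1_CS) over (D1_SC over D1_SS), was 3.64 ± 0.87 for Actg1, 3.10 ± 0.80 for Actb and -0.12 ± 0.53 for Arpc2.

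**Figure D2:**
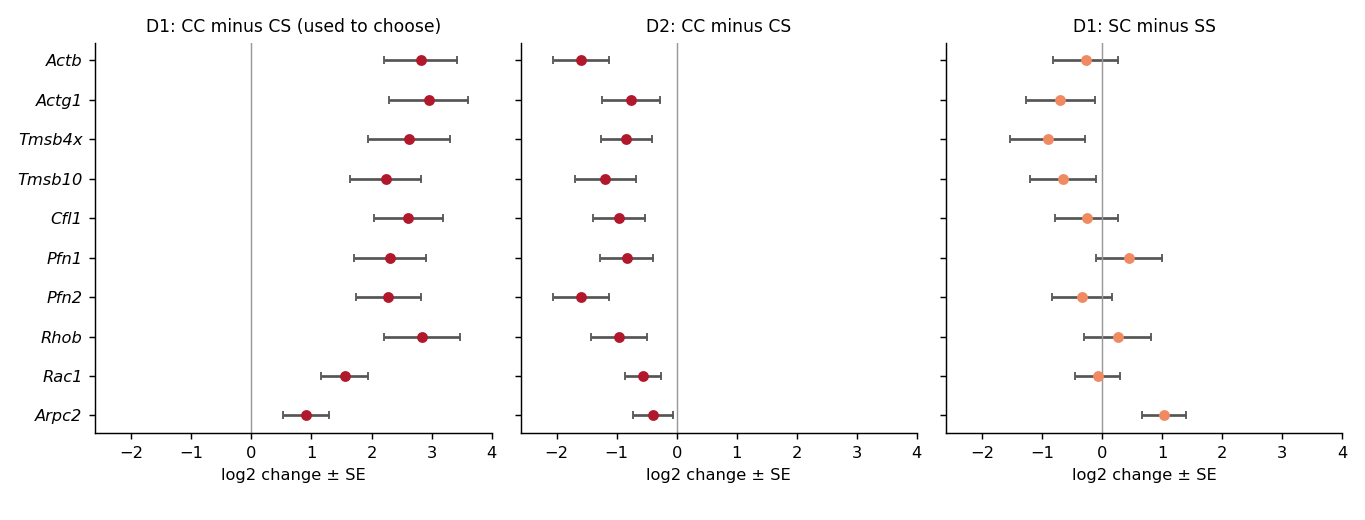
Log2 change with its standard error for the 10 genes in D1 CC over CS (left, the comparison used to choose them), D2 CC over CS (middle) and D1 SC over SS (right). All 10 points lie above 0 in the left panel and below 0 in the middle panel, and in the right panel 3 lie above 0, with Arpc2 at 1.03.

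The first cocaine challenge in D1 nuclei, D1_SC over D1_SS, compares groups that were not used for the choice, although D1_CC and D1_CS enter its fit through the spread and scaling. None of the 10 genes passed, while 11.3% of the 37721 genes tested did (edgeR, Benjamini-Hochberg adjusted p under 0.05). Arpc2 came nearest, with a log2 change of 1.03 ± 0.37 (adjusted p = 0.0597, edgeR), and 7 of 9 D1_SC libraries were above the D1_SS median. The 3 D1_SC libraries above every D1_SS library, with 104, 109 and 161 CPM, had all failed the rule, and without such libraries the change was 0.45 ± 0.36 (adjusted p = 0.512, edgeR). It passed when D1_CC replicate 3 was left out (adjusted p = 0.0288, edgeR), or D1_SC replicate 1 (0.0446), 6 (0.0243) or 7 (0.0358), and under DESeq2 (adjusted p = 0.0360). Actb was at -0.27 ± 0.54 and Actg1 at -0.69 ± 0.58 (adjusted p = 0.746 and 0.408, edgeR), and 1 of 9 D1_SC libraries exceeded the D1_SS median for each. Tmsb4x lay lowest, at -0.91 ± 0.62. Over the 10 genes 3 lay above 0 and 7 below, with a median of -0.27, beside -0.07 over all genes tested. The levels did not all have the fitted sign. Pfn1 and Rhob were fitted at 0.45 and 0.26, with ratios of the D1_SC median to the D1_SS median of 0.516 and 0.468. For Arpc2 that ratio was 1.11.

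The same comparison was next made in D2 nuclei, where D2_CC over D2_CS was not used for the choice. The fitted log2 change was below 0 for all 10 genes, and none passed (0 of 10, beside 0.252% of 36090 genes, all of them lower). The levels did not all have that sign: the ratio of the D2_CC median to the D2_CS median was 1.20 for Arpc2 and 1.01 for Tmsb4x, and 0.281 to 0.843 for the other 8. Actb was at -1.59 ± 0.47 (adjusted p = 0.135, edgeR) and Pfn2 at -1.59 ± 0.46 (adjusted p = 0.128, edgeR). Next came Tmsb10 at -1.19 ± 0.51, Cfl1 at -0.97 ± 0.43 and Rhob at -0.96 ± 0.47, and the remaining 5 lay between -0.84 and -0.40, Arpc2 being nearest to 0. The median was -0.90, beside 0.02 over all genes, and it was -0.99 without the libraries that failed the rule, -0.43 with background subtracted and -0.41 without D2_CS replicate 1. Actb passed when D2_CC replicate 3 (log2 change -2.01, adjusted p = 0.0455, edgeR) or D2_CS replicate 8 (-1.73, adjusted p = 0.0471) was left out, and Pfn2 when D2_CS replicate 8 (-1.73, adjusted p = 0.0466) or replicate 10 (-1.74, adjusted p = 0.0465) was. Without D2_CS replicate 4, the library with 281 CPM of Pfn2, the change of Pfn2 was -0.74 (adjusted p = 0.882, edgeR), and without D2_CS replicate 3 that of Actb was -1.24 (adjusted p = 0.486, edgeR). Of the 10 D2_CS libraries 5 failed the rule, among them 4 of the 6 with the highest Actb, and without all such libraries Actb was at -1.23 ± 0.54. The difference between the lines in this contrast was not tested, since the D1 side picked the genes.

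In the other D2 comparisons no member passed either. A first cocaine challenge, D2_SC over D2_SS, gave 0 of 10, beside 0% of 36090 genes (edgeR; 1914 genes had an unadjusted p under 0.05). Tmsb4x was at -1.51 ± 0.43 (adjusted p = 0.656) and Tmsb10 at -1.38 ± 0.51 (adjusted p = 0.871), Arpc2 at 0.21 ± 0.34, and 9 of the 10 lay below 0. The monomer-binding thymosins held the lowest values, and no D2_SC library reached the D2_SS median for either.

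Withdrawal in D2 nuclei, D2_CS over D2_SS, gave 0 of 10, beside 0.0859% of all genes, with Pfn2 at 0.96 ± 0.46, Actb at 0.79 ± 0.47 and a member median of 0.13. Pfn2 was at 0.11 without D2_CS replicate 4, and Actb at 0.44 without D2_CS replicate 3 and at 0.0031 with background subtracted. The median lay below 0 under 4 of 6 other settings. Cocaine again, D2_CC over D2_SS, gave 0 of 10, beside 0% (380 genes had an unadjusted p under 0.05). All 10 lay below 0 there, from -1.40 ± 0.42 for Tmsb4x to -0.32 ± 0.33 for Arpc2. D2_CC over D2_SC gave 0 of 10, beside 0% (1192 genes unadjusted), with a median of -0.35. The test of whether the challenge response depended on history in D2 nuclei gave 0 of 10, beside 0% (2146 genes unadjusted), with Actb at -1.51 ± 0.66 and Tmsb4x at 0.67 ± 0.60. These D2 contrasts share groups with each other and are no independent evidence of one another.

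Between the lines, no member passed after saline throughout. D1_SS over D2_SS ran from -0.49 ± 0.53 for Tmsb10 to -0.08 ± 0.55 for Actg1, with 0 of 10 past the threshold, beside 0.0255% of 39250 genes in the fit of all 75 libraries. Actb was at -0.36 ± 0.53, and errors of this size leave room for a difference in either direction. After a first cocaine challenge, D1_SC over D2_SC gave 0 of 10, beside 1.17%, with Actb at -0.55 ± 0.54, Pfn1 at 0.69 ± 0.53 and Arpc2 at 0.38 ± 0.38. The values scattered on both sides of 0, 5 above and 5 below, and without the libraries that failed the rule all 10 lay above 0, with a median of 0.53 and Actb at 0.48 ± 0.68. The difference between lines in the response to a first challenge gave 0 of 10, beside 0.028%, with a median of 0.29 and Pfn1 highest at 0.89 ± 0.73.

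Across libraries the 10 genes moved together within groups. Over the 71 libraries with at least 1000000 counts, after subtraction of group means, the 45 pairs of genes had Pearson correlations from 0.48 (Tmsb10 with Pfn2) to 0.97 (Actb with Cfl1), with a median of 0.78. The actins correlated at 0.91 with each other, and Pfn1 and Rhob at 0.94. All values of a library share its depth and total, so these are descriptions. Among the 5 non-member genes most like Actb by this measure were Tspyl1 (0.96), Rab3a (0.96), Atp5a1 (0.96) and Ubqln2 (0.96). Those most like Actg1 were Slc25a4 (0.96), Slc25a5 (0.96), Tubb5 (0.95), Tuba1a (0.95) and H3f3b (0.95). Tspyl1 and Ubqln2 are 100% exonic, as genes without introns are, and Rab3a, Tubb5 and the Slc25a genes span under 5 kilobases.

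The share of counts on 92 genes for cytosolic ribosomal proteins, whose messages are short, abundant and mostly exonic, moved with the actin genes. Its lowest, median and highest values were 0.0795%, 0.144% and 0.561% in D1_CC, 0.0355%, 0.0642% and 0.348% in D1_SC, 0.0535%, 0.1004% and 0.128% in D1_CS, and 0.0323%, 0.187% and 0.414% in D1_SS. The highest D1_CS library was below the median of D1_CC, and D1_SC had the lowest median of the D1 line. Over the 53 libraries of the 6 groups other than D1_CC and D1_CS, log2 Actb correlated with log2 of this share at Pearson's r = 0.81 and Spearman's ρ = 0.81, and Tmsb4x at r = 0.93 and ρ = 0.95. Each of these had a permutation p of 1e-05, the smallest that 100000 resamples can give, and an adjusted p of at most 2.22e-05 over 20 relations. Actb kept r = 0.81 without the 2 libraries farthest from the median, with 0.89 in 18 D1 libraries, 0.77 in 35 D2 libraries and 0.90 in the 43 that passed the rule. Of the other genes Actg1, Cfl1, Pfn2, Tmsb10, Rac1, Rhob and Pfn1 lay between r = 0.70 and 0.90, each at the same smallest p. Arpc2 was lowest, at r = 0.38 and ρ = 0.37 (permutation p = 0.00416 and 0.00635, adjusted 0.00756 and 0.0115). Against background share it stood at r = -0.55 and ρ = -0.70 (permutation p = 2e-05 and 1e-05), where the other 9 lay between r = -0.27 and 0.13. Of those 9, Rhob alone had a p under 0.05, for ρ (-0.30, permutation p = 0.0284, adjusted 0.0473) and not for r (permutation p = 0.0542). A level and a share of the same library are both fractions of its total, and their part in the differences between groups was not tested.

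**Figure D3:**
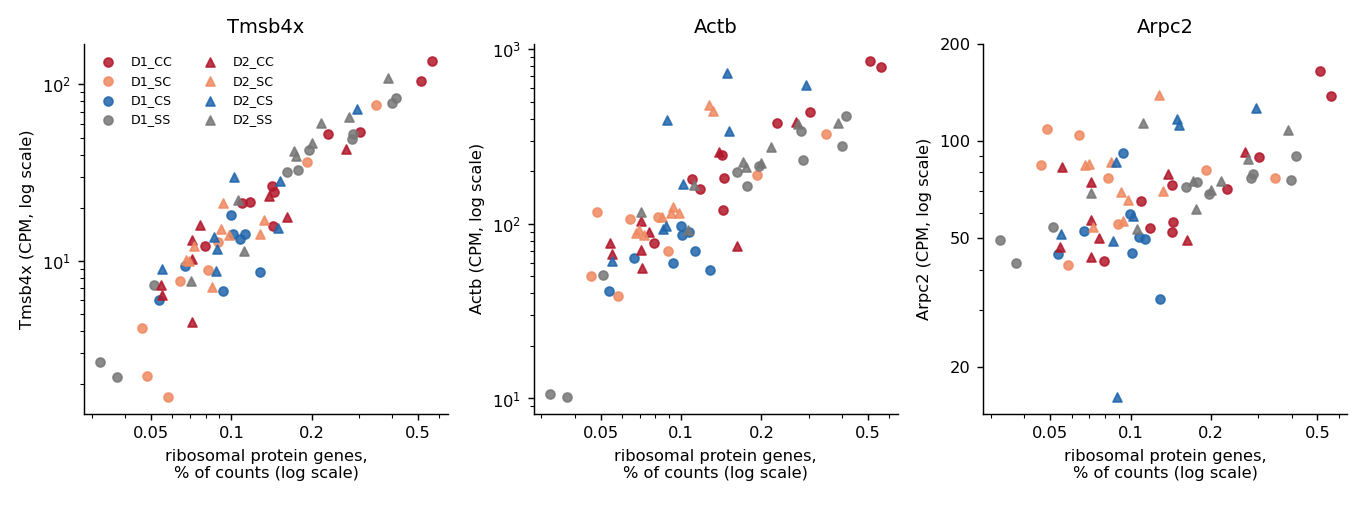
Tmsb4x, Actb and Arpc2 in CPM against the share of counts on ribosomal protein genes, both on log scales, one symbol per library with at least 1000000 counts (circles D1, triangles D2, colour by group). Tmsb4x and Actb climb with the share over the whole range while Arpc2 scatters, and D1_CC replicates 1 and 3 lie at the upper right of each panel.

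The size of the change differed with the exonic share of the gene, over all genes as well as over these 10. Among 13159 protein-coding genes with an average log2 CPM of at least 3, the median change of D1_CC over D1_CS was -0.13 for genes up to 5% exonic, -0.04 from 5% to 10%, 0.25 from 10% to 20%, 0.63 from 20% to 40% and 1.30 from 40% to 100%. For 72 ribosomal protein genes it was 1.94. Of the actin set, Arpc2 and Rac1 have the lowest exonic shares and had the smallest changes, 0.91 and 1.55, and the 8 genes above 57% exonic had 2.24 to 2.95. Arpc2 and Rac1 also stood closest to background, with medians of 6.39 and 4.98 times its density in libraries with at least 1000000 counts. In D1_CS these were 3.21 and 2.59 times, and the other 8 genes had medians of 8.66 to 140 times over all groups. The part of background in the size of the changes was not tested. In D2_CC over D2_CS the classes ran the other way, from 0.00 to -0.47 among 12909 genes, and the 8 short genes had -1.59 to -0.76. In each contrast all 10 genes lay farther from 0 than the median of their class. In D1_SC over D1_SS the classes differed little (0.19 to 0.32), and the ribosomal protein genes stood at -0.54. Exonic share moves with gene length and level, and its part in these changes was not tested.

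**Figure D4:**
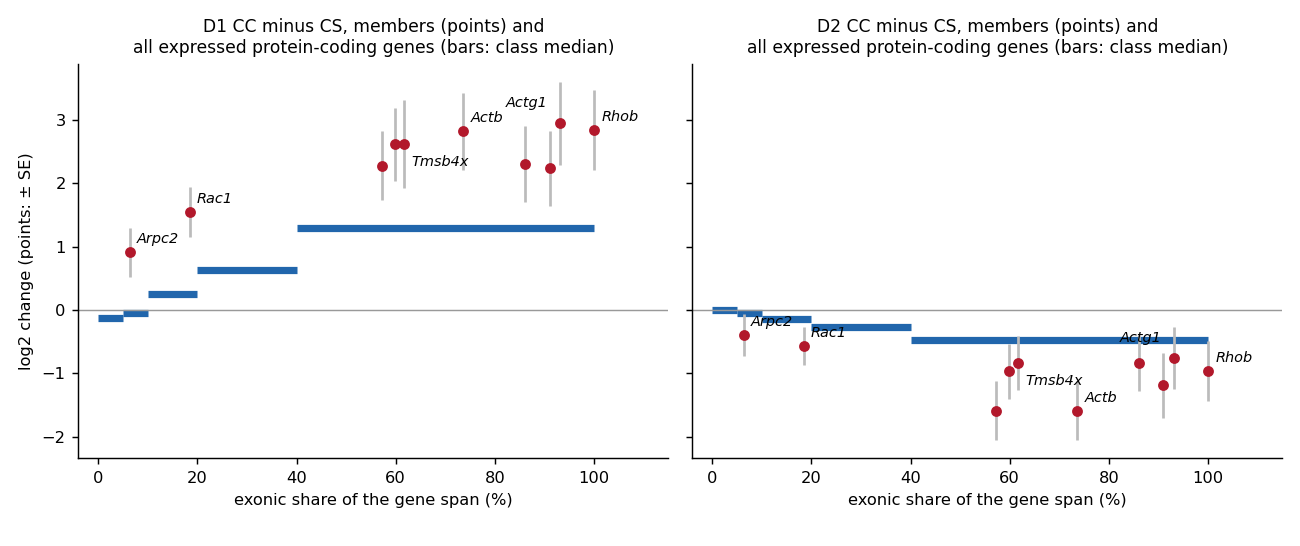
Log2 change of CC over CS against the exonic share of the gene span in D1 nuclei (left) and D2 nuclei (right); points are the 10 genes with their standard errors and bars are medians of all expressed protein-coding genes per class of exonic share. Class medians climb to 1.30 on the left and descend to -0.47 on the right, and Arpc2 and Rac1, at 6.33% and 18.4%, lie nearest to 0 in both panels.

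The rest of the actin pathway was read from lists of 173 genes, of which 171 were measured. After a first cocaine challenge in D1 nuclei, D1_SC over D1_SS, 55 of them rose and 0 fell, where 9.7% of the 37721 genes tested were called higher. The list median was 0.50, beside -0.07 over all genes tested and 0.27 over the 13159 protein-coding genes with an average log2 CPM of at least 3. The share called higher among those 13159 genes was not counted, so no excess of the listed genes is read from the 55. Exchange factors and activating or inhibitory proteins of these small GTPases had the highest share, with 17 of 25 higher, led by Arhgap33 (log2 change 1.43 ± 0.37, adjusted p = 0.0110, edgeR), of the family of GTPase-activating proteins, and Bcr (1.38 ± 0.35), which has an activating domain for Rac. Among capping, severing, bundling and side-binding proteins 18 of 55 were higher, led by the coronin Coro1c (1.47 ± 0.35). WAVE and WASP nucleation promoters had 6 of 15, with Wipf3 (1.58 ± 0.29, adjusted p = 0.00293, edgeR) and Wipf2 (1.27 ± 0.26). LIM kinase and slingshot regulators of cofilin had 5 of 13, with Pak3 (1.41 ± 0.35) and Rock2 (1.34 ± 0.39), and formins 3 of 14, with Daam1 (1.49 ± 0.28) and Diaph2 (1.21 ± 0.31).

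Fewer members passed in the lists that hold the close relatives of the 10 genes; the difference between lists was not tested. The Arp2/3 complex had 1 of 9 (Actr3b, 0.92 ± 0.25), monomer-binding and depolymerizing relatives of cofilin, profilin and thymosin 1 of 9 (Cap2, 1.03 ± 0.28), GTPases related to Rac1 and RhoB 1 of 17 (Rhoq, 0.94 ± 0.24) and other actins 0 of 7. Serum response factor and its cofactors had 3 of 7, among them Mrtfb (1.30 ± 0.34) and Mrtfa (0.75 ± 0.23), the cofactors that free actin holds inactive, while Srf itself was at 0.34 ± 0.34. Without the libraries that failed the rule 0 of the 171 genes passed (smallest adjusted p = 0.235, edgeR), 54 of the 55 still lay above 0, and their median was 0.56 in place of 1.03. The count was also low without single libraries: 4 without D1_SC replicate 2, 20 without D1_CS replicate 5 and 21 without D1_SS replicate 3, which had all passed the rule, and 5, 8 and 19 without D1_SC replicates 4, 9 and 5, which had failed it. The background share had medians of 18.0% in D1_SC and 45.6% in D1_SS, and with background subtracted 6 listed genes were called higher.

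**Figure D5:**
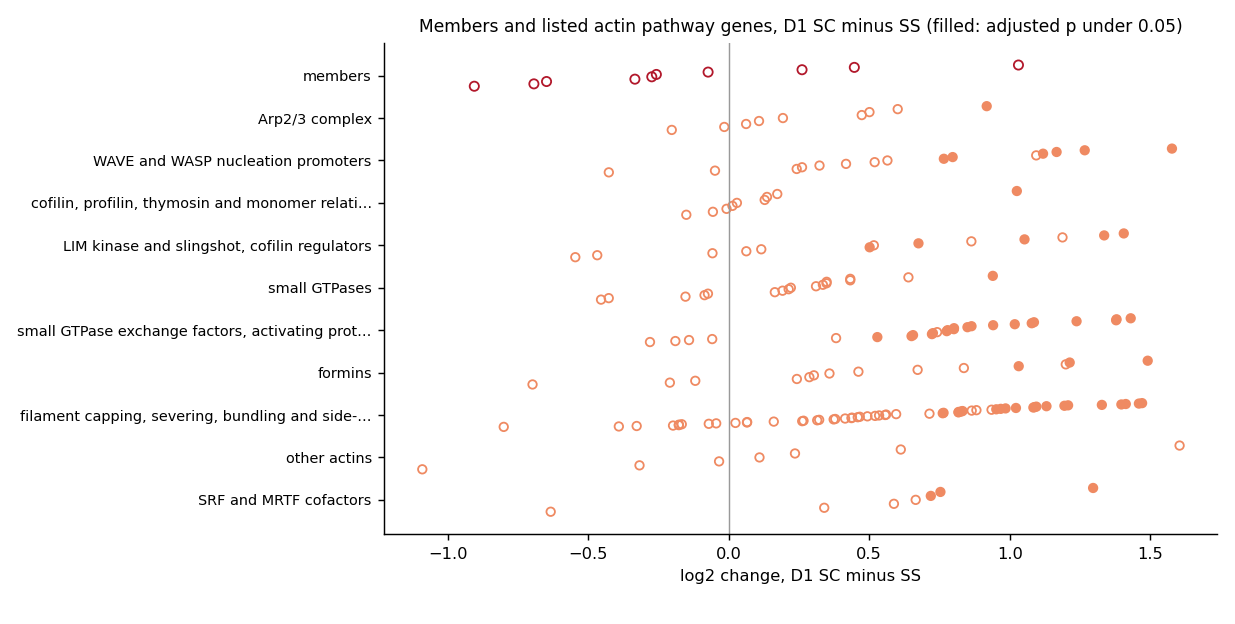
Log2 change of D1_SC over D1_SS for the 10 genes (top row) and for each list of actin pathway genes; filled symbols have an adjusted p under 0.05 by edgeR. The 55 filled symbols all lie above 0, none is in the top row, and the regulators of small GTPases hold 17 of 25.

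In the other tested comparisons 4 calls were made among the 171 measured genes of the lists. D2_CS over D2_SS and D2_CC over D2_CS had 1 each, beside 0.0859% and 0.252% of all genes tested. D1_SC over D2_SC had 2, beside 1.17% of all genes tested. Actl6a, an actin-related subunit of chromatin remodellers, was at 2.10 ± 0.46 in D2_CS over D2_SS (adjusted p = 0.0472, edgeR) and at -2.24 ± 0.46 in D2_CC over D2_CS (adjusted p = 0.0281). Both calls came from D2_CS replicate 4, which had 286 CPM and failed the rule: without it the changes were 0.51 ± 0.24 (adjusted p = 1.00) and -0.66 ± 0.24 (adjusted p = 0.618). In D1_SC over D2_SC, cardiac actin Actc1 was at 2.06 ± 0.55 (adjusted p = 0.0382), with 28.8 CPM in D1_SC replicate 1, which failed the rule, and medians of 1.19 CPM in D1_SC and 0.708 CPM in D2_SC. The filament-binding Ablim1 was at 0.78 ± 0.22 (adjusted p = 0.0483), with medians of 185 CPM in D1_SC and 192 CPM in D2_SC and a highest value of 671 CPM in D1_SC replicate 5, which failed the rule. Without the libraries that failed the rule these were 0.16 ± 0.36 and 0.36 ± 0.14, and neither passed (adjusted p = 1.00 for both, edgeR).

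In the comparison used for the choice, D1_CC over D1_CS, the following listed genes, picked after their values were seen, are given without a test. Arhgdia, an inhibitor that keeps these GTPases off membranes, was at 2.61 ± 0.60, Pdxp, a phosphatase that activates cofilin, at 2.46 ± 0.55, and the myosin light chain Myl6 at 2.39 ± 0.64. Ppp1r9b, the spine protein spinophilin, was at 1.85 ± 0.43. Cap1 and Cfl2, relatives of the monomer binders and of cofilin, were both at 1.57, Actr2 and Arpc5 of the Arp2/3 complex at 1.53 ± 0.40 and 1.43 ± 0.37, and Srf at 1.15 ± 0.35. All 9 measured partners of Arpc2 in the Arp2/3 complex lay above 0, with a median of 1.16. Not every list rose: 4 of the 14 formins (median -0.16) and 3 of the 7 other actins (median -0.11) lay above 0. Over all 171 listed genes 124 lay above 0, with a median of 0.34.

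Markers of other cell types were summed in each library. No marker was at 0 over a whole group. The summed level of 10 microglial markers, a cell type rich in Actb and Tmsb4x, had group medians of 140 to 190 CPM and correlated with Actb at 0.06 over 71 libraries. The sum of oligodendrocyte markers correlated at 0.41, of D2 neuron markers at 0.35, of astrocyte markers at 0.26 and of endothelial markers at -0.27. These correlations are descriptions over libraries that share their depth, and the part of other cell types in the levels was not tested.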

How the data were processed

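Nuclear total RNA libraries of 75 labelled samples were analysed. Counts per gene deposited by the authors were whole numbers; FPKM deposited by the authors used the full gene span, equal to that of GENCODE M21 for 54271 of 54271 identifiers compared, and served only for lengths. Per the submitters' processing notes, featureCounts and DESeq2 were used with mm10; no source used here gives the aligner or the strand setting. Symbols, spans and exons came from GENCODE M21.

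Genes were tested with edgeR 4.0.16 (R 4.3.3; quasi-likelihood, TMM, filterByExpr by group, Benjamini-Hochberg over all genes tested, two-sided, threshold 0.05): 37 D1 libraries over 37721 genes, 38 D2 libraries over 36090 genes, and all 75 over 39250 genes across lines. All 10 members passed the filter in each fit. The edgeR step was run on simulated counts with known changes for D1_SC over D1_SS, and the other steps were not. CPM are counts per 1000000 of the library total. Levels in correlations were log2 of CPM plus 0.1, or for pairs of genes log2 TMM CPM with a prior count of 2.

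The quality rule failed any library whose total was less than the median of its line over 3, whose number of genes with 10 or more counts or correlation to its line fell short of the typical value by more than 4 scaled median absolute deviations, or whose Drd1 to Drd2 ratio lay on the side of the other line. Background density came from 1754 olfactory and vomeronasal receptor genes.

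The members, lists and rules were chosen with earlier results of these data known. Named genes are the 10 members, up to 2 per list with the largest rise and fall among those that passed, and the 5 most like each actin; a few genes that this rule names are not reported here. Srf and the genes named by list in the comparison used for the choice were named after their values were seen. Alternatives were RLE scaling, DESeq2 1.42.0, no filter, leaving out the failing libraries, background subtraction, a replicate block and leaving out each library within a line; those for the listed genes, the libraries used in the correlations and the leaving out of libraries outside the contrast were chosen after seeing the data.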

Additional observations from a re-analysis of the deposited data

Results flagged for a closer look

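In 10 of the 80 combinations of a gene and a group, the highest library stood apart from the others by more than Dixon's critical value for the group's size. For normally spread and independent values chance gives about 1 in 20 groups, or 4 of the 80. The genes moved together across libraries and normal spread of the CPM was not tested, so no excess is read from the 10. Of the 10, 5 were in libraries that failed the quality rule.

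D2_SC replicate 2, which failed the rule, was highest for Actg1 at 116.6 CPM (next 54.7), for Pfn1 at 13.2 CPM (next 8.67), for Rac1 at 53.9 CPM (next 38.9) and for Arpc2 at 138.7 CPM (next 86.1). D2_CS replicate 4, which also failed, had 280.9 CPM of Pfn2 (next 113).

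D1_SC replicate 7, which passed the rule, was highest for Tmsb4x at 76.2 CPM (next 36.3), for Tmsb10 at 22.7 CPM (next 10.7) and for Cfl1 at 56.8 CPM (next 24.3). D2_SS replicate 4 had 52.9 CPM of Tmsb10 (next 18.2), and D1_CS replicate 3 had 91.7 CPM of Arpc2 (next 59.5). Both of these passed the rule.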

How the results depend on the processing

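Of 437 values under 6 other settings, 351 kept their direction and their side of the threshold or moved by less than the limit, as did 2116 of 2289 values with 1 library left out; comparisons between lines were not rerun with libraries left out. In D1 SC over SS, 1 member passed under DESeq2 (Arpc2, 0.87, adjusted p = 0.0360), and 0 to 1 with a library left out (1 without D1_CC replicate 3 or D1_SC replicate 1, 6 or 7). In D2 CC over CS, 0 to 2 passed with a library left out, and 0 under the other settings. The member median of D2 CS over SS was -0.10 with RLE scaling, -0.063 with DESeq2, -0.47 with background subtracted and -0.10 with the replicate block, and -0.23 to 0.25 with a library left out. That of D2 CC over SC was 0.051 without the failing libraries, and that of D2 history by challenge 0.29 with background subtracted. That of D1 over D2 in SC was -0.059 with RLE scaling, -0.0726 with DESeq2 and -0.11 with background subtracted, and Actb there was 0.48 without the failing libraries. Actb in D2 SC over SS ran from -0.40 to 0.047 with a library left out. In D1 CC over CS, a description, the members past the threshold numbered 0 without the failing libraries, 0 with background subtracted, and 0 to 10 with a library left out; with background subtracted the median was 1.78, Actb 1.91 and Actg1 2.01. The median of D1 CC over SC ran from 0.74 to 1.57 with a library left out. Listed genes higher in D1 SC over SS numbered 0 without the failing libraries, 6 with background subtracted and 4 to 71 with a library left out. The causes of these moves were not tested.

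Replicate numbers did not pair libraries: the median correlation of same-numbered libraries was -0.08 in D1 and 0.03 in D2, and 5 of 36 and 3 of 35 libraries correlated best with their own number. Under the replicate block no member passed in a tested comparison. Precision is limited by depth for Tmsb10 and Pfn1, with median counts of 78 and 84, and by the 4 libraries under 1000000 counts.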

Other observations

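The genes nearest in pattern to the other 8 members were read after their values were seen and are descriptions over 71 libraries, with no test. Both thymosins stood beside ribosomal protein genes: within groups Tmsb4x was most like Rps23 (r = 0.98), with Rpl41 (0.96) also among its 5, and Tmsb10 was most like Rps9 (0.93) and Rpl36 (0.92). Cfl1 was most like the calmodulin gene Calm3 (0.97). Pfn1 and Rhob shared Gapdh, a glycolytic enzyme, among their 5 (0.92 and 0.95).

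Arpc2 kept other company. Its nearest genes were Ttc19 (0.97), Pitpna (0.97) and Ptp4a2 (0.97), which span 47.0, 40.7 and 38.8 kilobases with exonic shares of 9.95%, 10.1% and 11.3%, beside its own 32.1 kilobases and 6.33%. The next 2 were Sfxn3 (0.96), which spans 8.88 kilobases and is 35.0% exonic, and Anapc4 (0.96), at 33.8 kilobases and 18.0%.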
